A study of Mus musculus with 2 samples.

Results

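The genes that code for the enzymes of heme synthesis and heme breakdown were compared between 2 liver sections by spatial transcriptomics (ST). Of the 19465 genes in the tables, 9 were taken by symbol. They were Alas1, which codes for the first enzyme of the pathway, 6 later synthesis genes (Alad, Uros, Urod, Cpox, Ppox and Fech) and 2 breakdown genes (Hmox1 and Blvrb). The set was chosen by the Alas1 ratio between these libraries, which was known to be large. The Alas1 difference is therefore given as a description, and nothing is supported with it.

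One section came from a mouse without AEG-1 in its myeloid cells (AEG-1ΔMAC, written AEG-1DMAC in the labels) and 1 from a littermate with the floxed allele and no deletion (AEG-1fl/fl). In AEG-1ΔMAC mice, Cre recombinase driven from the Lyz2 locus removes AEG-1, the product of Mtdh, from macrophages and other myeloid cells, so hepatocytes keep the gene. Both mice were 27 weeks old, and both carry the label of a high-fat/high-sugar diet begun at 7 weeks, whereas the study's methods say that ST used mice on a control diet. The diet of these mice could not be settled, and the labels do not give their sex. Each genotype had 1 library, so the spread between mice is unknown, no test was run, and every interval below covers counting error only.

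Heme is an iron-containing ring that serves as the working group of hemoglobin, of mitochondrial cytochromes and of cytochrome P450 enzymes. The liver is, next to the bone marrow, a main site of its synthesis, largely for its P450 enzymes. Synthesis starts in mitochondria with 5-aminolevulinate synthase, encoded by Alas1 in the liver and by Alas2 in erythroid cells. That step limits the rate, and heme itself represses ALAS1. The product leaves for the cytosol, is built into a ring by enzymes that include ALAD, UROS and UROD, and returns to mitochondria, where CPOX and PPOX oxidise it and FECH inserts iron. Heme oxygenase opens the ring to biliverdin, with release of iron and carbon monoxide, and biliverdin reductases turn biliverdin into bilirubin.

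After filtering, 2140 AEG-1ΔMAC spots with 45453286 unique molecular identifiers (UMIs) and 2540 AEG-1fl/fl spots with 50322850 UMIs were used. A spot is a small region that holds several cells, most of them hepatocytes, so fewer cells of a type and less RNA per cell cannot be told apart. The libraries shared 1776 barcodes, 83.0% of those of AEG-1ΔMAC and 69.9% of those of AEG-1fl/fl, because a Visium barcode marks a position on the array. Of all UMIs, Alb, the albumin gene, took 8.80% in the AEG-1ΔMAC section and 14.2% in the other. Counts were scaled to the library total (CPM). Over the 6933 genes averaging at least 10 CPM, the median log2 ratio between libraries, AEG-1ΔMAC over AEG-1fl/fl, was 0.15, and the 5th and 95th percentiles were -0.29 and 0.54. This median moved by -0.12 with TMM factors, by -0.13 with median-of-ratios size factors and by -0.14 when the 50 most abundant genes were left out. Ratios, intervals and fold counts below are against equal CPM, without subtracting this median, unless stated otherwise. A ratio below the median is therefore low among all genes even where it lies near equal CPM. The targeted gene, Mtdh, had 66.3 and 60.2 CPM, which does not test a deletion in myeloid cells since the other cells of a spot keep it. Levels are not compared between genes, because the count of a gene depends on how well its probes bind.

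Alas1 (ENSMUSG00000032786, chromosome 9, 106233455 to 106248654, minus strand, GRCm38) was far higher in AEG-1ΔMAC, while no later synthesis gene differed by as much as 1.5-fold. There were 14121 Alas1 UMIs in AEG-1ΔMAC and 1066 in the AEG-1fl/fl section. These stood for 311 CPM (95% Poisson interval 306 to 316) and 21.2 CPM (19.9 to 22.5). The log2 ratio was 3.87 (95% interval 3.78 to 3.97), or 14.7-fold, and ranked 3 from the top among the 6933 genes. Relative to the median of all genes it was 3.73. Of the 9 genes, 1 differed at least 2-fold, where 1.79% of all genes did. At least 1.5-fold, Hmox1 was added and the number was 2 of 9, beside 6.09% of all genes. Since the Alas1 contrast chose the set, nothing is read from these counts.

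**Figure D1:**
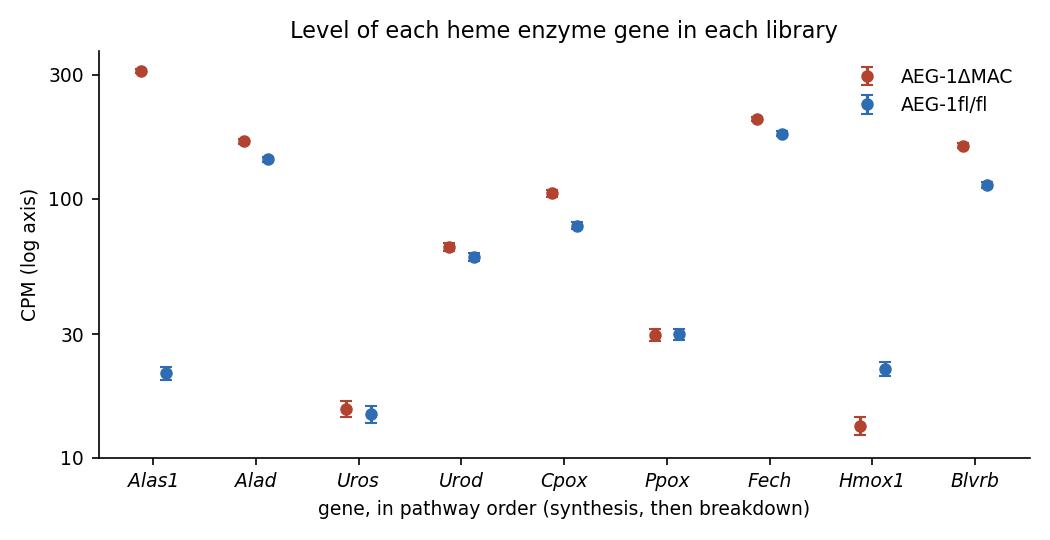
Level of the 9 genes in CPM (log axis) in pathway order, with exact Poisson 95% intervals that cover counting error only. Red points are the AEG-1ΔMAC library and blue points the AEG-1fl/fl library. Alas1 is separated by 311 against 21.2 CPM, and Hmox1 is the only gene of the 9 whose AEG-1ΔMAC point lies clearly below.

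The later synthesis genes stayed near the level of all genes. In the order AEG-1ΔMAC and AEG-1fl/fl, which is kept below, their levels were close. Their log2 ratios ranged from -0.01 to 0.41 with a median of 0.16, against 0.15 over all genes. Alad (chromosome 4, 62509169 to 62519918, minus strand), whose enzyme makes porphobilinogen, had 166 and 142 CPM, and its log2 ratio was 0.23 (0.18 to 0.28). Uros (chromosome 7, 133686243 to 133710072, minus strand), which codes for uroporphyrinogen III synthase, had 15.4 and 14.7 CPM, a log2 ratio of 0.07 (-0.08 to 0.22) whose interval includes 0, so that a difference was not detectable with these counts, and which fell to -0.07 without the 50 most abundant genes. Urod (chromosome 4, 116989965 to 116994413, minus strand), whose enzyme removes carboxyl groups from the new ring, had 65.1 and 59.3 CPM. Its log2 ratio of 0.13 (0.06 to 0.21) fell to -0.01 (-0.08 to 0.07) when the 50 most abundant genes were left out of the total, so its direction depended on the scaling.

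The mitochondrial end of the pathway held the highest and the lowest ratio of these 6 genes. Cpox (chromosome 16, 58670292 to 58717636, plus strand), which codes for coproporphyrinogen oxidase, had 105 and 78.7 CPM, a log2 ratio of 0.41 (0.35 to 0.47). This ratio lay at percentile 90.6 of all genes. Ppox (chromosome 1, 171275990 to 171281186, minus strand), which codes for the next enzyme, protoporphyrinogen oxidase, had 29.8 and 29.9 CPM, a log2 ratio of -0.01 (-0.11 to 0.10) at percentile 20.9. Fech, which codes for ferrochelatase, had 203 and 178 CPM, a log2 ratio of 0.19 (0.15 to 0.23) close to that of all genes. Under the scalings tried, the ratio stayed between 0.27 and 0.41 for Cpox and between 0.05 and 0.19 for Fech. The Ppox ratio depended on the scaling. It was -0.13 (-0.24 to -0.02) with TMM factors and -0.14 (-0.24 to -0.03) with median-of-ratios size factors. Without the 50 most abundant genes it was -0.15 (-0.25 to -0.04).

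The breakdown genes went opposite ways. Hmox1 (chromosome 8, 75093621 to 75100589, plus strand) codes for the inducible heme oxygenase, which in the liver is best known from macrophages that clear red blood cells. It had 602 UMIs in AEG-1ΔMAC and 1108 in the AEG-1fl/fl section, or 13.2 CPM (12.2 to 14.3) against 22.02 CPM (20.7 to 23.4). The log2 ratio was -0.73 (-0.88 to -0.59), 1.66-fold lower in AEG-1ΔMAC, and lay at percentile 1.05 of all genes. Blvrb (chromosome 7, 27447978 to 27466144, plus strand), which codes for biliverdin reductase B, a flavin reductase, had 159.7 and 113 CPM. Its log2 ratio was 0.51 (0.45 to 0.56) at percentile 94.0. Both directions were the same under each scaling tried, with ratios from -0.88 to -0.67 for Hmox1 and from 0.36 to 0.51 for Blvrb.

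A comparison of Alas1 with each other gene inside a library does not depend on the scaling, and the efficiency of the probes cancels when this quotient is set between libraries. For each Alad UMI there were 1.87 Alas1 UMIs in AEG-1ΔMAC, but 0.149 in AEG-1fl/fl. For Cpox the numbers were 2.96 and 0.269, and for Fech 1.53 and 0.119. For Hmox1 they were 23.5 and 0.962. On the log2 scale, the shift of Alas1 against a later step ranged from 3.46 (3.35 to 3.57) for Cpox to 3.88 (3.74 to 4.02) for Ppox. Against the breakdown genes it was 3.37 (3.27 to 3.47) for Blvrb and 4.61 (4.44 to 4.78) for Hmox1. The Alas1 ratio exceeded the median of the 6 later steps by 3.71, which is the same description in other terms, and was not tested.

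Short stretches of the promoters are shown because the synthesis genes differed in ratio while sharing a pathway. RefSeq windows of GRCm38.p6, from 250 bases before to 50 bases after an annotated start site, were found for 7 of the 9 genes (11 windows). Fech and Hmox1 had no window and were not searched. An exact match to GCATGCGC, the motif of nuclear respiratory factor 1 (NRF1), was found on either strand in 2.71% of all 32851 windows. Of the 11 windows it was found in 2, both of Alas1, which hold the same site. The 2 matches at this site overlap on opposite strands and are both covered by the capitals. CACGTG, the E-box bound by MYC and by the clock factors CLOCK and BMAL1, was found in 7.15% of all windows. Of the 11 windows it was found in 4, which belong to Alad, Uros and Urod. Each line gives 30 bases on the minus strand, 5′ to 3′, with the motif in capitals.
Alas1 (NRF1 motif, chr9:106247906-106247935): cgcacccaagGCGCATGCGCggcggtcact
Alad (E-box, chr4:62520151-62520180): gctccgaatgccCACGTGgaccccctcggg
Alad (E-box, window of another start site, chr4:62519920-62519949): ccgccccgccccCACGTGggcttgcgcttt
Uros (E-box, chr7:133709516-133709545): CACGTGtgctttctcacctcgtccacgatt
Urod (E-box, chr4:116994445-116994474): cactggatcggtCACGTGgttctcaatatg

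These are matches of letters, not measured binding. The GC box GGGCGG was found in 7 of the 11 windows, which belong to 6 of the 7 genes, and in 35.7% of all windows. No exact match in the member windows was found for AGGTCA (16.3% of all windows), GTAAACA (3.65%), TGACGTCA (1.79%), TTATGTAA (0.938%) or TGACNNNGC (12.4%), each searched on both strands. TGACNNNGC is the core of the antioxidant response element. Hmox1 had no window, so its promoter was not searched for this or any other motif. Nrf1, the gene of NRF1, had 18.6 and 16.7 CPM, a log2 ratio of 0.16 (0.02 to 0.30).

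Position in the lobule was examined next, since hepatocytes near the central vein (pericentral, zone 3) carry most P450 enzymes and those near the portal vein (periportal, zone 1) carry other functions. Within each library, spots were ranked by zone 3 minus zone 1 markers and divided into 3 equal parts. None of the 9 genes entered the ranking. The zone ratio is the log2 ratio of CPM in the zone 3 part over the zone 1 part. The zone 3 markers of the ranking were themselves higher in AEG-1ΔMAC, with log2 ratios between libraries of 1.35 for Cyp2e1 and 1.05 for Cyp1a2, and equal parts need not cover the same positions in both sections. Among genes that did not enter the ranking, the zone ratio of Slc1a2, a pericentral transporter gene, was 3.29 in AEG-1ΔMAC and 3.03 in the AEG-1fl/fl section, and that of Sds, a periportal enzyme gene, was -2.03 and -1.65.

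Alas1 was close to even along the lobule in AEG-1ΔMAC and leaned to zone 3 in the AEG-1fl/fl section. In AEG-1ΔMAC it had 306 CPM in the zone 1 part, 298 CPM in the middle part and 329 CPM in the zone 3 part. In AEG-1fl/fl it had 18.5, 20.1 and 25.03 CPM. The zone ratio was 0.11 (0.05 to 0.16) in AEG-1ΔMAC and 0.43 (0.22 to 0.65) in the AEG-1fl/fl section, a difference of -0.33 (-0.55 to -0.11). The log2 ratio between libraries was 4.04 (3.88 to 4.21) in the zone 1 part, 3.89 (3.73 to 4.05) in the middle part and 3.72 (3.57 to 3.87) in the zone 3 part. The share of all genes that differed at least 2-fold was 1.69%, 1.90% and 2.18% in these parts. The landmark genes nearest to Alas1 in zone ratio were Ass1 below (-0.30) and Tbx3 above (2.11) in AEG-1ΔMAC. The interval of Ass1 was -0.68 to 0.08 at 8.07 CPM, so Ass1 was not clearly zoned here.

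**Figure D2:**
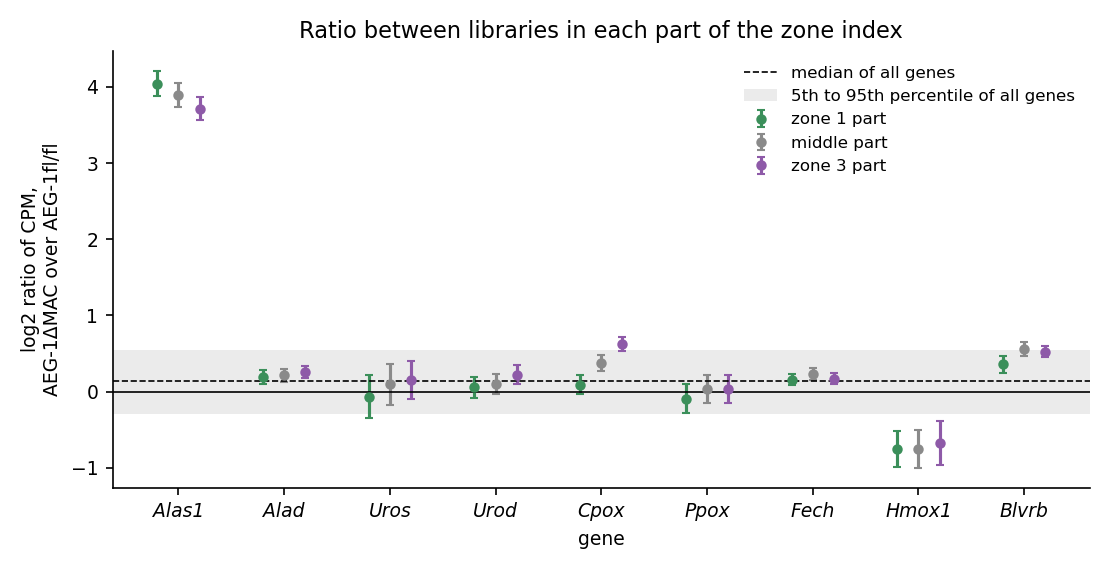
Log2 ratio between libraries (positive where AEG-1ΔMAC was higher) for each gene in the zone 1 (green), middle (grey) and zone 3 (purple) parts of the ranking, with exact 95% intervals that cover counting error. The dashed line is the median of all genes (0.15) and the band their 5th to 95th percentile (-0.29 to 0.54). Alas1 lies between 3.72 and 4.04 in all 3 parts, Hmox1 lies below the band in all 3, and Cpox climbs from 0.09 to 0.62.

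Blvrb had the highest zone ratio of the 9 genes in both libraries, and Cpox had the next highest in AEG-1ΔMAC but not in AEG-1fl/fl. Blvrb had 95.9 CPM in the zone 1 part and 235 CPM in the zone 3 part of AEG-1ΔMAC, and 74.8 and 164 CPM in AEG-1fl/fl. Its zone ratios were 1.30 (1.21 to 1.38) and 1.13 (1.03 to 1.23), which differed by 0.17 (0.04 to 0.30). Cpox had 70.9 and 149 CPM in the outer parts of AEG-1ΔMAC, and 66.6 and 96.9 CPM in those of AEG-1fl/fl. Its zone ratios were 1.07 (0.97 to 1.18) and 0.54 (0.43 to 0.65), a difference of 0.53 (0.38 to 0.69). The libraries were therefore near each other for Cpox in the zone 1 part, at a log2 ratio of 0.09 (-0.03 to 0.21), and apart in the zone 3 part, at 0.62 (0.53 to 0.72). Whether this difference goes with the higher zone 3 markers of AEG-1ΔMAC was not tested.

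Most of the remaining genes leaned to zone 3. Alad had zone ratios of 0.65 in AEG-1ΔMAC and 0.58 in the AEG-1fl/fl section. Urod had 0.38 and 0.21, Fech 0.22 and 0.21, and Uros 0.47 and 0.25. The interval of the Uros ratio in AEG-1fl/fl reached 0, as did those of Ppox in both libraries, at 0.12 and -0.01. Hmox1 ran the other way and was higher in the zone 1 part, with zone ratios of -0.56 (-0.86 to -0.27) and -0.64 (-0.87 to -0.42). At least 2-fold zoned were 2 of 9 genes in AEG-1ΔMAC, where 1.84% of all genes were, and 1 of 9 in AEG-1fl/fl, where 1.42% were. With intervals off 0, 7 genes leaned to zone 3 and 1 to zone 1 in AEG-1ΔMAC, where 31.1% and 10.2% of all genes did. In AEG-1fl/fl, 6 and 1 did, where 28.9% and 9.25% of all genes did. An interval lies off 0 more readily for a gene with more UMIs.

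In 10 equal bins of the ranking, Alas1 ran from 283 to 381 CPM in AEG-1ΔMAC and from 17.5 to 29.1 CPM in the AEG-1fl/fl section, so the bins of the libraries did not overlap. Its level was highest in the last bin of zone 3 in both. In AEG-1ΔMAC the first bin of zone 1, at 347 CPM, stood above the 8 bins between the ends. The log2 ratio between libraries was highest in bin 1, at 4.26, and lowest in bin 9, at 3.57. Cpox had from 65.2 to 202 CPM in AEG-1ΔMAC and from 64.9 to 123 CPM in the AEG-1fl/fl section. Blvrb ran from 76.1 to 309 CPM and from 64.3 to 231 CPM. Hmox1 was lower in AEG-1ΔMAC in each of the 10 bins, with 8.81 to 16.4 CPM against 13.0 to 28.7 CPM.

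**Figure D3:**
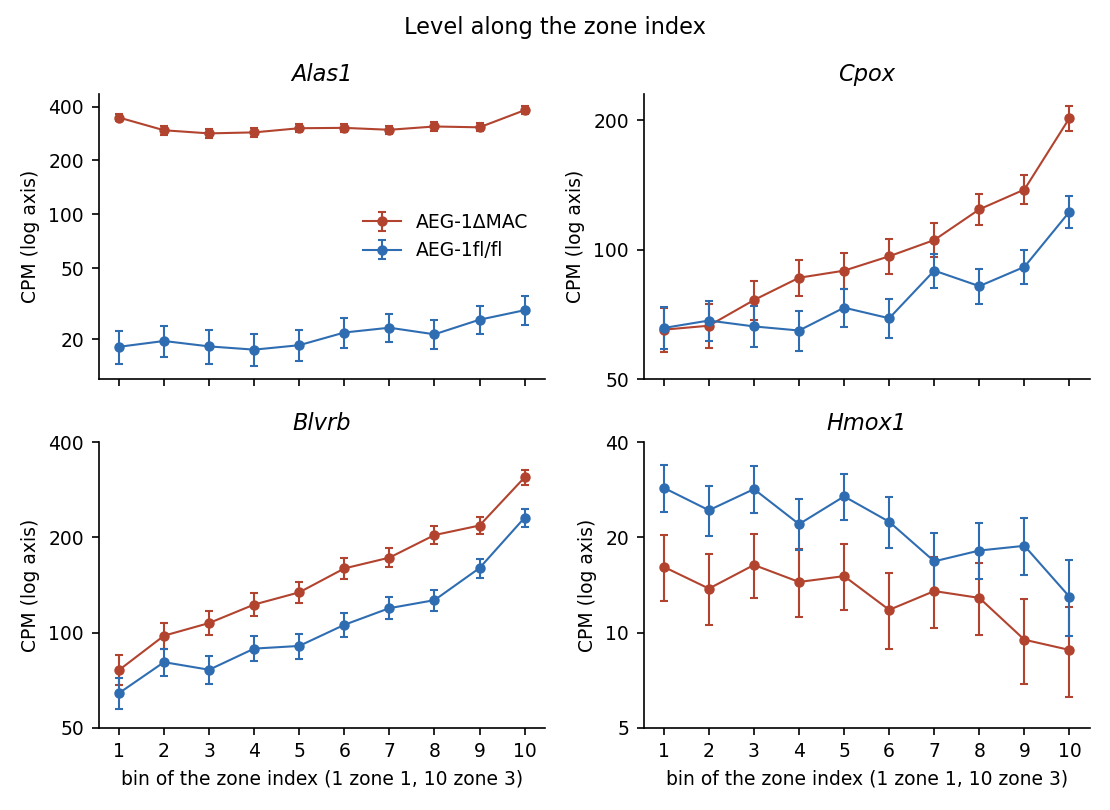
Level in CPM (log axes, a scale for each gene) of Alas1, Cpox, Blvrb and Hmox1 in 10 equal bins of spots from zone 1 (bin 1) to zone 3 (bin 10), with exact Poisson 95% intervals. Red is AEG-1ΔMAC and blue AEG-1fl/fl. The Alas1 curves stay apart (283 to 381 against 17.5 to 29.1 CPM), Cpox starts level and parts toward zone 3, and Hmox1 is lower in AEG-1ΔMAC in every bin.

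Alas1 was found in nearly every AEG-1ΔMAC spot. To compare spots at 1 depth, each was thinned to 10000 UMIs, which left 2114 AEG-1ΔMAC and 2434 AEG-1fl/fl spots and dropped 26 and 106 shallower ones. An Alas1 UMI was then present in 94.8% (93.8 to 95.7) of AEG-1ΔMAC and 18.4% (16.8 to 20.0) of AEG-1fl/fl spots, with exact binomial 95% intervals. The median spot had 3 and 0 Alas1 UMIs, the mean was 3.07 and 0.205, and the highest count was 13 and 3. Above the highest AEG-1fl/fl spot lay 36.0% of AEG-1ΔMAC spots. The variance over the mean of the UMIs per spot was 1.19 in AEG-1ΔMAC and 1.03 in the AEG-1fl/fl section, where counting error alone gives 1. The 10% of unthinned spots richest in Alas1 held 21.3% of its UMIs in AEG-1ΔMAC.

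**Figure D4:**
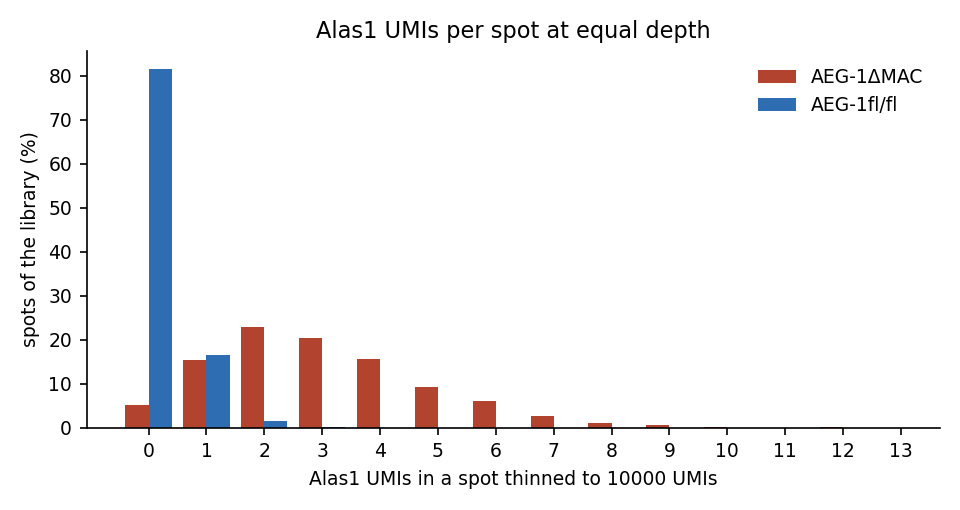
Share of spots in percent by number of Alas1 UMIs after each spot was thinned to 10000 UMIs, for AEG-1ΔMAC (red, 2114 spots) and AEG-1fl/fl (blue, 2434 spots). AEG-1fl/fl spots gather at 0 (81.6%), while AEG-1ΔMAC spots spread around a median of 3 UMIs and reach 13.

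The other genes showed smaller shifts in the share of spots with a UMI. Alad was present in 78.2% and 74.7% of spots, Urod in 47.5% and 43.0%, Cpox in 62.7% and 53.1%, and Fech in 86.1% and 82.6%. Uros was present in 13.5% and 14.5% and Ppox in 25.3% and 25.8%, with overlapping intervals. Hmox1 was present in 11.6% (10.3 to 13.1) and 19.6% (18.0 to 21.2), and Blvrb in 75.2% and 65.4%. As a background, the most frequent of 10 genes of other organs was present in 1.80% of the AEG-1ΔMAC spots, and in the AEG-1fl/fl section the most frequent, Gfap, a gene of astroglia, was in 0.657%. The highest in AEG-1ΔMAC was Tnnt2, a gene of heart muscle, with 1.80% and 0.370% of spots and 2.71 against 0.358 CPM, a log2 ratio of 2.92 (2.20 to 3.72).

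Macrophages take up heme from aged red blood cells, so the 10% of spots with the highest share of UMIs from 8 Kupffer cell genes (Clec4f, Cd5l, Vsig4, Timd4, C1qa, C1qb, C1qc and Adgre1) was set against the other spots of its library. These were 214 AEG-1ΔMAC and 254 AEG-1fl/fl spots. Hmox1 was higher in them, with 23.5 against 12.2 CPM in AEG-1ΔMAC and 41.1 against 20.3 CPM in the AEG-1fl/fl section. The log2 ratios of 0.94 (0.61 to 1.26) and 1.02 (0.78 to 1.26) overlapped. Between libraries, Hmox1 was lower in AEG-1ΔMAC by about the same amount in the rich spots, at -0.81 (-1.18 to -0.44), and in the other spots, at -0.73. When spots were ranked within each part of the zone ranking, an alternative chosen after the data were seen, the rich spots still had more Hmox1, by 0.998 and 0.87.

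The Kupffer cell genes as a list were near the level of all genes. Their summed level was 938 CPM in AEG-1ΔMAC and 858 CPM in the AEG-1fl/fl section, none of the 8 differed 1.5-fold, and their median log2 ratio was 0.07. Of the 4 other macrophage and monocyte genes compared, 2 were higher and 2 lower in AEG-1ΔMAC with intervals off 0, with log2 ratios of 0.52 for Ccr2, -0.14 for Cd68 and -0.45 for Spic. The fourth, Cd163, which codes for the receptor that takes up hemoglobin bound to haptoglobin, was higher in AEG-1ΔMAC, at 27.9 against 10.3 CPM, a log2 ratio of 1.44 (1.29 to 1.59). The neutrophil genes S100a8 and S100a9 were lower in AEG-1ΔMAC, at 0.88 against 5.25 CPM and 1.61 against 9.96 CPM. Csf3r, the third neutrophil gene compared, had -0.40 (-0.78 to -0.02), while Mmp9 and Cxcr2, below 1 CPM, had 0.40 and 0.30 with intervals that include 0. The part of these genes' cells in the Hmox1 difference was not tested. In the spots rich in Kupffer cell RNA, Alas1 was lower than in other spots, by -0.18 (-0.27 to -0.09) and -0.42 (-0.79 to -0.06) on the log2 scale. Blvrb was lower by -0.23 and -0.32, values that shrank to -0.01 and -0.06 with ranking inside the zone parts.

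**Figure D5:**
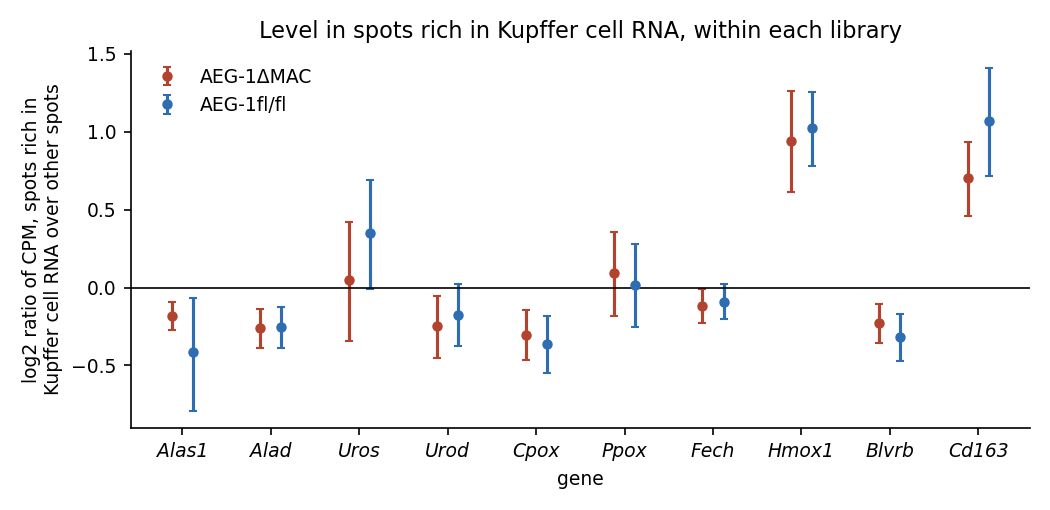
Log2 ratio of CPM in the 10% of spots richest in Kupffer cell RNA over the other spots, within AEG-1ΔMAC (red) and AEG-1fl/fl (blue), with exact 95% intervals. Hmox1 (0.94 and 1.02) and the macrophage receptor gene Cd163 (0.70 and 1.07) lie above 0 in both libraries, while Alas1, Alad, Cpox and Blvrb lie below.

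Erythroid RNA was examined because the precursors of red blood cells make heme for hemoglobin. The erythroid list summed to 1034 CPM in AEG-1ΔMAC and 1230 CPM in the AEG-1fl/fl section, most of it from globin genes, whose near-identical copies make single values uncertain. Hbb-bt, a globin gene, was the lowest at 25.4 against 58.3 CPM and -1.20 on the log2 scale, and Bpgm, an enzyme gene of red blood cells, the highest at 0.10 (-0.05 to 0.24). Slc4a1, Epb42 and Rhag, which are defining genes of red blood cells and their precursors, had 0 UMIs in AEG-1ΔMAC, and 15, 3 and 5 in AEG-1fl/fl. Alas2, the erythroid form of the first enzyme, was lower in AEG-1ΔMAC, at 112 against 168 CPM, a log2 ratio of -0.59 (-0.64 to -0.53), so the first-step genes went opposite ways. In the 10% of spots richest in the other erythroid genes, Alas2 was higher by 0.41 (0.30 to 0.53) in AEG-1ΔMAC and by 0.07 (-0.03 to 0.17) in the AEG-1fl/fl section. Alas1 was higher there by 0.22 (0.14 to 0.29) and 0.16 (-0.12 to 0.44). Between libraries, Alas1 had a log2 ratio of 3.92 in the erythroid-rich spots and 3.87 in the others.

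Genes of other heme enzymes were near the level of all genes, apart from Alas2. Of the 6 compared (Alas2, Hmox2, Blvra, Hccs, Cox10 and Cox15), none differed 2-fold and their median log2 ratio was 0.19. It was 0.13 over all 11178 genes averaging at least 1 CPM, of which 3.28% differed 2-fold and 9.18% 1.5-fold. Hmox2, the constitutive heme oxygenase gene, had 48.4 and 40.6 CPM, a log2 ratio of 0.25, opposite in sign to Hmox1. Blvra, the main biliverdin reductase gene, had 19.9 and 19.8 CPM. Hccs, whose enzyme attaches heme to cytochrome c, was the highest of the list at 0.38.

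Of 22 genes for heme transport and mitochondrial supply, none was 1.5-fold higher and 1 was 1.5-fold lower in AEG-1ΔMAC, where 5.28% and 3.90% of all genes were, with a median log2 ratio of 0.15. The lower gene was Flvcr2, which codes for a membrane transporter, at 2.82 against 6.52 CPM, or -1.21 (-1.52 to -0.91) on the log2 scale. The highest was Slc25a28, a mitochondrial iron carrier gene, at 0.49. With intervals off 0, 11 genes of the list were higher and 5 lower in AEG-1ΔMAC. The summed level of the list was lower, at 8427 against 9824 CPM. Hpx, which held most of these counts, had 4361 against 6041 CPM, a log2 ratio of -0.47 (-0.48 to -0.46). Of 9 genes for iron release and storage, Slc39a14, which codes for a metal importer, was highest at 0.67 and Tfrc, the transferrin receptor gene, lowest at -0.15, with a list median of 0.24.

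Among known regulators of Alas1, genes of the circadian clock stood out. Of 21 genes, 5 were higher by 2-fold or more and 1 was lower by as much, where 1.74% and 1.55% of all genes were. The 6 are all genes of the clock or its output. Dbp, the gene of a clock output factor, had 17.5 against 2.58 CPM, a log2 ratio of 2.76 (2.49 to 3.04). Nr1d1 and Nr1d2, which code for the heme-binding repressors REV-ERBα and REV-ERBβ, had log2 ratios of 1.42 (1.33 to 1.51) and 1.37 (1.25 to 1.48). Tef and Per2 had 1.33 and 1.30. Npas2, a heme-binding partner of BMAL1, had 4.73 against 11.2 CPM, a log2 ratio of -1.24, and Arntl, the gene of BMAL1, had -0.71. Ppargc1a, which codes for a coactivator of Alas1 in fasting, had 0.32 (0.08 to 0.56) at 6.73 and 5.39 CPM. The part of the clock genes in the Alas1 difference was not tested.

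Genes that use heme or answer to the same receptors were also compared between libraries. Alas1 was chosen for its large ratio, so smaller ratios in these lists are not read as a result. Of 10 targets of the xenobiotic receptors CAR and PXR, none was 2-fold higher, and Cyp2c55 was 2-fold lower at -1.08. Over all genes, 1.74% were 2-fold higher and 1.55% were 2-fold lower. At least 1.5-fold, 3 of the 10 were higher and 1 was lower, where 5.28% and 3.90% of all genes were. Aldh1a1 was the highest at 0.91, Abcc3 and Cyp3a11, which has near-identical relatives, had 0.61 and 0.59, and the list median was 0.36. Nr1i3, the gene of CAR, had 175.6 against 109 CPM, a log2 ratio of 0.69. Of 17 genes of liver hemoproteins in a list without Cyp2e1, Cyp1a2 and Cyp2c55, none differed 2-fold, where 3.28% of all genes did. Those 3 P450 genes, given above, differed 2-fold, with Cyp2e1 and Cyp1a2 higher and Cyp2c55 lower in AEG-1ΔMAC. The study also reports Cyp2c54, a further P450 gene outside the list, as higher in AEG-1ΔMAC. The list is a selection, so it does not show how the liver's other hemoprotein genes stood. Cyp7a1, the rate-limiting enzyme gene of bile acid synthesis, was highest at 0.91 and Cyp4a14, a fatty acid hydroxylase gene, lowest at -0.80, with a list median of 0.18. Of 12 targets and regulators of the oxidative stress factors NRF2 and BACH1, which also act on Hmox1, Osgin1 was 2-fold lower, at 161.7 against 329 CPM and -1.02. It was the only 1 of the 12 at least 1.5-fold apart, where 9.18% of all genes were. Bach1, the gene of the repressor of Hmox1, was highest at 0.58, and the list median was 0.20.

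The genes whose pattern was most like that of Alas1 were sought over 20 points, the 10 bins of each library, among 2181 genes averaging at least 50 CPM. With levels as they were, Pearson's r on log2(CPM + 1) was highest for Phlda1 (0.997), Gadd45g, Dusp1, Hhex and Arid5b (0.995), with a median of 0.541 over all genes compared. The points of a library share its depth and section, so this measure takes in the difference between libraries, and these genes had log2 ratios between libraries from 1.71 for Hhex to 4.45 for Gadd45g. With each library's mean subtracted, the most alike were Scarb2 (0.915), Fabp1, Rapgef4, Gpd1 and Mttp (0.886), with a median of 0.443. These 5 had log2 ratios between libraries from 0.02 for Fabp1 to 0.53 for Rapgef4. On this measure Alad had 0.737, Urod 0.715, Fech 0.702, Blvrb 0.687 and Cpox 0.630, the 5 other heme genes above the minimum. Their ranks ran from 169 for Alad to 538 for Cpox among the 2181 genes. With levels as they were, Fech had 0.691, while Alad (0.424), Blvrb (0.452), Urod (0.454) and Cpox (0.456) lay below that measure's median.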

How the data were processed

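The authors deposited raw UMI counts per gene and spot for formalin-fixed, paraffin-embedded sections (Visium, probe based, both on 1 slide by the labels), made with Space Ranger 2.0.1 on mm10. The submitters' processing notes name Seurat 4.3.0, and the study's methods name a later major version. Spots were kept by the limits stated in the study, at most 50000 UMIs and 100 to 7000 genes. This removed 9 of 2149 and 3 of 2543 deposited spots, although the study gives the deposited numbers as those left after its filter. Median UMIs per spot were 20929.5 for AEG-1ΔMAC and 18285 for AEG-1fl/fl. UMIs were summed and divided by the library total (CPM). Levels carry exact Poisson, ratios exact conditional binomial (Clopper-Pearson) and differences of ratios Wald 95% intervals. The floor of 3 UMIs was 0.066 and 0.0596 CPM. Spots were ranked by the study's zone markers (Arg1, Cyp2f2, Gls2, Hal, Hsd17b13 and Pck1 for zone 1, Cyp1a2, Cyp2e1 and Oat for zone 3). Spots are regions of a section and not replicates, so no p-value was computed.

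The members and the gene lists were chosen with earlier results of these data known. Named are the 9 members, the genes of each list at least 2-fold apart or with the highest or lowest ratio (mean of at least 1 CPM), the 5 most like Alas1 by each measure, Mtdh, Alb, and landmark genes next to Alas1; further members of the lists were named after their values were seen. The extremes of the hepatocyte, cholangiocyte, stellate cell, endothelial and zone lists are not all named, since these lists served as checks. All 9 members passed 10 CPM. Lyz2, which carries the Cre, had 0.55 and 0.815 CPM. Median log2 ratios of the lists used as checks of other cells were -0.28 for hepatocyte, 0.24 for cholangiocyte, -0.06 for stellate cell and -0.03 for endothelial genes. Bmal1 was counted under its older symbol Arntl, and Cyp2b10, Cyp2b9, Cyp2a5, Ftl1, Hba-a1, Ahsp, Ly6c2 and Glul were not analysed here. A further gene of the lists is not reported here. Coordinates are from GENCODE M21 (GRCm38), matched by Ensembl identifier, and promoter windows from RefSeq. Python 3.11.15, numpy 2.4.6, scipy 1.17.1 and, for TMM factors only, edgeR 4.0.16 were used. The interval functions were tested on simulated counts. Alternatives were other scalings, all deposited spots, spots matched on UMIs, the mean over spots, other minimum levels and folds, other zone indices and other thinning depths.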

Additional observations from a re-analysis of the deposited data

How the results depend on the processing

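With 1 library per genotype, leaving out a replicate was not possible. No paired analysis was possible because each genotype had 1 library and the labels carry no replicate numbers. The Alas1 log2 ratio of 3.87 became 3.75 with TMM factors, 3.74 with median-of-ratios size factors and 3.73 without the 50 most abundant genes. The Urod ratio turned from 0.13 to -0.0074 without those genes. Of the 9 members, 1 was 2-fold apart and 2 were 1.5-fold apart. The Alas1 zone ratio in AEG-1fl/fl rose from 0.43 to 0.68 when the outermost bins were compared, which lie farther apart on the ranking. For AEG-1ΔMAC and AEG-1fl/fl, the share of spots with an Alas1 UMI was 77.1% and 10.2% at 5000 UMIs and 99.3% and 32.9% without thinning. The difference between Alas1 and the later steps stayed between 3.71 and 3.76. Across 84 values and 220 alternatives, Urod was the 1 value whose interval lay off 0 and whose sign changed. In 73 cases, some of them given above, an alternative moved a value beyond its interval with no such change of sign, as shares of spots do at other depths. The low counts of Uros and Hmox1 limit their ratios most, and no setting can show what another pair of mice would give.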
